A study of Mus musculus with 6 samples.

Results

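The regions described here carried an ATAC-seq peak in mouse embryonic stem cells (ESCs) and in L-EPSCs, 1 of the 2 kinds of expanded potential stem cells made from them, but no peak in D-EPSCs, the other kind. ATAC-seq uses the Tn5 transposase to insert adapters into open chromatin, so a peak marks a stretch of accessible DNA. The peaks of the 3 deposited lists were pooled on chromosomes 1 to 19 and X of mm9, peaks that overlapped by at least 1 bp were merged, and the regions were chosen by membership alone: a peak of the ESC list, a peak of the L-EPSC list, and none of the D-EPSC list. Of 65518 merged regions, 1915 (2.92%) met this rule, and they covered 844 kb. The lists held 28965 ESC peaks, 50225 D-EPSC peaks and 46601 L-EPSC peaks.

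All cells were of the J1 line on the 129SV background, and both EPSC states were converted from these ESCs. The number of separate conversions is not given in the sources used here. ESCs were grown in serum with LIF, CHIR99021 and PD0325901. D-EPSCs were grown in N2B27 with KSR, LIF, CHIR99021, dimethindene maleate and minocycline hydrochloride. L-EPSCs were grown in DMEM/F12 with KSR, LIF, CHIR99021, PD0325901, A-419259, XAV939, JNK inhibitor VIII and SB203580. LIF and the GSK3 inhibitor CHIR99021 were thus common to all 3 media, whereas the MEK inhibitor PD0325901 was in the ESC and the L-EPSC medium and not in the D-EPSC medium. The part of any single component in the regions below was not tested, and the components cannot be told apart in this design. There were 2 technical replicates per state, and the deposited lists pooled them and held no heights, so no value per replicate could be given, no test across replicates was possible, and the depth is unknown. Intervals below are 95% intervals that cover counting error over regions only, and a region without a D-EPSC peak is 1 that was not called, which is not the same as closed.

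As background, pluripotent cells hold their identity through a network of transcription factors that bind enhancers, which are mostly far from genes. OCT4, SOX2 and NANOG form its core. ESRRB, the related nuclear receptor NR5A2, KLF factors, TFCP2L1 and TBX3 act beside them in the naive state, in which LIF, a GSK3 inhibitor and a MEK inhibitor keep mouse ESCs, and OTX2 is known for its role in the exit from that state. Many copies of endogenous retroviruses and other repeats carry binding sites for such factors and can be open in ESCs.

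The sequences that carry the main observations on these regions are shown first. They are 120 bp stretches of mm9, read 5′ to 3′, in lower case with matches in capitals. The first set holds members with a match to the ESRRB/NR5A motif (CAAGGNCA) or the KLF motif (CCACACCC), searched on both strands, and covers members that are among the widest (Pdgfa, St8sia6 and Btbd11), that lie at genes of the lists described below (Esrrb, Phlda1 and Tcfap2c) or that lie near genes with the most members (Inhbb and Ptprg). In the Pdgfa, St8sia6 and Inhbb stretches the capitals mark an ESRRB/NR5A match, joined at Inhbb by a SOX match (AACAATG read on the other strand), and in the Ptprg, Btbd11 and Tcfap2c stretches they mark a KLF match. The Phlda1 stretch holds an ESRRB/NR5A match that runs into a KLF match, and a further KLF match.

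Pdgfa (chr5:139510489-139510608): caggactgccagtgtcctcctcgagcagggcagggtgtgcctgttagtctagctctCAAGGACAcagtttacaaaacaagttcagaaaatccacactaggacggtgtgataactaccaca
St8sia6 (chr2:13689850-13689969): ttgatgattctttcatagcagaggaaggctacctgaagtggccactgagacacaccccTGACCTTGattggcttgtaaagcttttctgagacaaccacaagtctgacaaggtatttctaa
Inhbb (chr1:121253647-121253766): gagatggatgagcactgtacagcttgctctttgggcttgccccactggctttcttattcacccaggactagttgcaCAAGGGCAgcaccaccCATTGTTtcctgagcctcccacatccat
Ptprg (chr14:12512774-12512893): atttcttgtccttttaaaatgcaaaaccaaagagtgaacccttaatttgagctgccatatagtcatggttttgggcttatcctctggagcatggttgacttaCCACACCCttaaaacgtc
Btbd11 (chr10:85061291-85061410): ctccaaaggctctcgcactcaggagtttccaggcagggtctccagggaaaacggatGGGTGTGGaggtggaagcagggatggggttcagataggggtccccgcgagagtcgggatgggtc
Tcfap2c (chr2:172394001-172394120): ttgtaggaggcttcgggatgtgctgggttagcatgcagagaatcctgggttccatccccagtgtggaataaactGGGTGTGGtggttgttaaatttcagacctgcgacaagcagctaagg
Esrrb (chr12:87845414-87845533): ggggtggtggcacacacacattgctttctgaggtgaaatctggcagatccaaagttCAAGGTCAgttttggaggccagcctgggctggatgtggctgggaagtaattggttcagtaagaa
Phlda1 (chr10:111029630-111029749): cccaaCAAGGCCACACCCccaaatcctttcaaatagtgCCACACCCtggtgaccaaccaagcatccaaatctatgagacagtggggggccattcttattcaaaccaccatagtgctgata

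The second set shows members on different chromosomes that held nearly the same sequence, a repeat with many copies in the genome, which was noticed after the values were seen. The capitals again mark the ESRRB/NR5A match, and each name is the nearest coding gene.

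Aasdhppt (chr9:4192950-4193069): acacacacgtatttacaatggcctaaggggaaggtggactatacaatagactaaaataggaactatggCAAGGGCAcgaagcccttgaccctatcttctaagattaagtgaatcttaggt
Dnajb9 (chr12:44313172-44313291): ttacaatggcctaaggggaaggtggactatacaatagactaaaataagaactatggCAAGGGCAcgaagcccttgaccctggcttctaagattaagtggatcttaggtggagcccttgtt
Tnfrsf8 (chr4:144967692-144967811): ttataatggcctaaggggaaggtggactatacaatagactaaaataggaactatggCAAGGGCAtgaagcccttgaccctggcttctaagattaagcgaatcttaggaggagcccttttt
St8sia1 (chr6:142934858-142934977): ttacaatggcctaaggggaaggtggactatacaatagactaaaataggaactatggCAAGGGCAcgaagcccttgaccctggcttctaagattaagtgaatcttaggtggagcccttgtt
Lonrf1 (chr8:37341423-37341542): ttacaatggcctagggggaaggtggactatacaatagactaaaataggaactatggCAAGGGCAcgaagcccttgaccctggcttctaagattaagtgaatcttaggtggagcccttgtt

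The region near Tnfrsf8 and that near St8sia1 are printed from the minus strand and the other 3 from the plus strand. In all 5 stretches the match reads CAAGGGCA.

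The regions were few beside what the lists shared. Of 28528 regions with an ESC peak, 6.71% were of this kind, and 21752 regions had peaks in all 3 lists. Among the 23667 regions with both an ESC and an L-EPSC peak, 8.09% (7.75 to 8.45) lacked a D-EPSC peak. The mirror class, regions with ESC and D-EPSC peaks and no L-EPSC peak, numbered 1507, which is 6.48% (6.17 to 6.80) of the 23259 regions with ESC and D-EPSC peaks. The ratio of the 2 classes was 1.27 (1.19 to 1.36), although the D-EPSC list was the longer of the EPSC lists. These counts follow from the rule and are given as a description.

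Most of the peaks that made up these regions were narrow. The ESC peak had a median width of 277 bp (269 to 286) and the L-EPSC peak of 271 bp (262 to 280), against list medians of 369 and 358 bp, and in regions of all 3 lists the medians were 424 bp for ESC and 557 bp for L-EPSC. The peaks of the mirror class were as narrow, with a median of 254 bp (244 to 261) for ESC and 264 bp (251 to 275) for D-EPSC, so narrow peaks were not particular to the members. In 1018 regions (53.2%) neither peak was wider than the median of its list, and in 263 (13.7%) both were. The merged regions ran from 128 to 1622 bp, with a median of 388 bp and quartiles of 285 and 547 bp. The ESC peak was the wider in 976 regions and the L-EPSC peak in 932, with 7 of equal width, so that ESC was wider in 51.0% (48.7 to 53.2). In regions of all 3 lists it was wider in 29.6% (29.0 to 30.2), so the widths in the regions without D-EPSC were balanced where the shared regions leaned to L-EPSC. Over the 1915 regions the 2 widths had a Pearson r of 0.290 and a Spearman rho of 0.290, as a description of neighbouring calls in the same DNA. The ESC and L-EPSC peaks overlapped by a median of 173 bp (169 to 178), 78 overlapped by under 50 bp, and 1102 (57.5%) shared at least 50% of the length of each.

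The lack of a D-EPSC peak went with peak width and with distance from coding starts. Where the narrower of the ESC and L-EPSC peaks was 200 bp or less, 892 of 4347 regions (20.5%, 19.3 to 21.7) lacked D-EPSC, and above 1000 bp 1 of 818 did. The lack of an L-EPSC peak among regions with ESC and D-EPSC fell in the same way, from 19.0% to 0 of 855, which allows up to 0.351%. For narrower peaks of over 300 and up to 400 bp the shares were 6.21% lacking D-EPSC and 3.61% lacking L-EPSC. Among TSS-distal regions, those with a midpoint over 1 kb from any annotated start of a coding transcript, 14.0% (13.4 to 14.6) lacked D-EPSC, whereas 0.706% (0.563 to 0.885) of TSS-proximal regions did. For the lack of L-EPSC the values were 10.6% (10.1 to 11.1) and 1.54% (1.32 to 1.79). Since the presence of these peaks defines both classes, the shares are a description and nothing is tested with them.

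**Figure D1:**
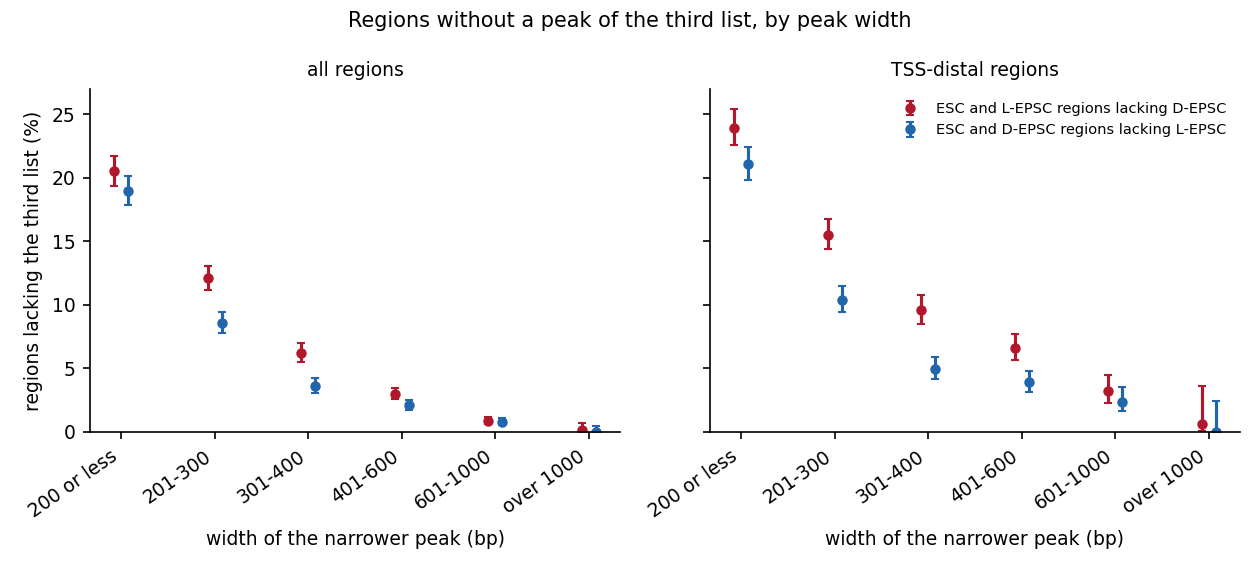
Share of regions that lacked a peak of the third list (y axis, %), by the width of the narrower of the other 2 peaks (x axis, bp), for all regions (left) and TSS-distal regions (right), with 95% Wilson intervals as bars. Both shares fell with width, from 20.5% and 19.0% at 200 bp or less in all regions, and the share lacking D-EPSC lay above the share lacking L-EPSC in the distal bins up to 600 bp.

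Position relative to genes was not used by the rule. Of the 1915 regions, 74 (3.86%, 3.09 to 4.82) were TSS-proximal. The share was 10.8% in the mirror class, a difference of -6.95 percentage points (-8.79 to -5.20), and 47.9% in regions of all 3 lists, a difference of -44.0 points (-45.0 to -42.8). Against regions of ESC only, with 4.32%, the interval of the difference included 0 (-1.53 to 0.693), and against regions of L-EPSC only, with 4.97%, it lay at -1.99 to -0.0626. The regions were intergenic in 959 cases (50.1%), intronic in 864 and exonic in 92, over coding genes of GENCODE M1. The intergenic share was 51.8% in the mirror class, with an interval of the difference that included 0 (-5.05 to 1.69), and 41.7% in regions of all 3 lists. The members lay over 50 kb from the nearest coding start in 32.9% of cases, against 14.4% for regions of all 3 lists and 28.8% for L-EPSC only. In the mirror class this share was 30.9% and the interval of the difference included 0 (-1.18 to 5.10), and in ESC only it was 36.9%, above the members (-6.66 to -1.33). Their median GC content was 49.3% (49.0 to 49.6), below the 52.1% of the mirror class and the 57.1% of regions of all 3 lists. Among TSS-distal regions alone the values were 49.1% (48.8 to 49.4), 51.6% (51.3 to 51.9) and 51.9%, and 49.0% in regions of ESC only. The CpG observed/expected ratio was 0.210 (0.201 to 0.218), against 0.243 in the mirror class and 0.532 in regions of all 3 lists. Among TSS-distal regions alone the ratios were closer, at 0.205, 0.227 and 0.265, and 0.181 in regions of ESC only.

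The nearest D-EPSC peak was usually a separate site. The gap to it had a median of 10125 bp (9549 to 11047), with quartiles of 4305 and 24936 bp. It was within 500 bp for 46 regions (2.40%) and over 50 kb for 268 (14.0%). Just inside the rule were a region near Ngef (chr1:89465024-89465280), 1 bp from a D-EPSC peak with an ESC peak of 203 bp and an L-EPSC peak of 215 bp, and regions near Sema6c and Plp2, each 2 bp away. Just outside it were regions near Ppp2r3c, Zbtb10 and Klf10, which D-EPSC peaks of 291, 128 and 237 bp overlapped by 8, 11 and 18 bp. Requiring 500 bp of distance from any D-EPSC peak left 1869 regions.

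Most of the regions lay alone: 1608 had no other member within 50 kb. A second member lay within 50 kb of 307 regions (interval of the share 14.5 to 17.7%), against 10.9% (9.41 to 12.6) of the mirror class with another region of its own class. A larger class has more chances of such a neighbour, and the members outnumber the mirror class, so the 2 shares are given side by side and no difference is read from them. The share of ESC-only regions with a member that near was 11.9% (10.8 to 13.0). A region of all 3 lists was within 50 kb of 70.2% of them. Chained at 50 kb, 11 groups held 3 or more members, 35 in all, and the largest held 4. In 4 of these groups no region with a D-EPSC peak lay between the members: 3 members in 8.44 kb near Map3k1, a kinase of the JNK pathway (chr13:112726450-112734884), 3 in 9.91 kb near Ccnc, the gene of cyclin C (chr4:21672876-21682784), 3 in 48.3 kb near Fryl (chr5:73563036-73611358) and 3 in 29.0 kb near Smad7, an inhibitor of TGF-β signalling (chr18:75354266-75383310). By chromosome, members made up from 1.78% (1.13 to 2.79) of the regions of X to 3.78% (3.24 to 4.40) of those of chromosome 1.

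Motif content was compared in 300 bp around the midpoint of TSS-distal regions, 1841 members and 1344 regions of the mirror class, for 21 motifs and 4 classes. Intervals of these differences were widened for the 84 comparisons. A match is a description of letters and not of binding. Shares of all regions, given beside those of the classes, include the TSS-proximal regions and so have an unlike base. The ESRRB/NR5A motif was in 17.5% of members, against 10.4% of the mirror class, a difference of 7.07 points (2.79 to 11.2). It was in 12.2% of regions of ESC only, 13.7% of L-EPSC only and 11.2% of all 3 lists, with differences of 5.34 (1.80 to 9.07), 3.78 (0.687 to 7.22) and 6.29 points (3.27 to 9.68), and in 10.2% of all 65518 regions. With matches in repeated sequence left out, as described below, the ESRRB/NR5A intervals against the mirror class and L-EPSC only included 0. The KLF motif was in 8.53% of members, against 3.50% of the mirror class, a difference of 5.03 points (2.10 to 7.88), and in 5.37% of all regions. Its share was also above those in ESC only (5.64%) and all 3 lists (5.65%), while against L-EPSC only (8.10%) the interval included 0. At least 1 of the 2 motifs was in 440 members (23.9%) and in 180 regions (13.4%) of the mirror class, and 39 members held both.

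Other motifs differed from some of the 4 classes only. The OTX2 motif (GGATTA), held by 7.85% of all regions, was in 6.74% of members and 10.6% of the mirror class, a difference of -3.83 points (-7.50 to -0.405). Against ESC only (8.73%), L-EPSC only (8.73%) and all 3 lists (7.92%) the interval for OTX2 included 0, as it did against the mirror class with windows of 200 and 500 bp. The ZFP281 motif (GGGGAGGGG), in 6.11% of all regions, was in 3.15% of members and 5.65% of the mirror class, a difference of -2.50 points (-5.31 to -0.0106). Its interval ended next to 0, and weighted to the GC content of the members the difference was -1.62 points, for which no interval was computed. ZFP281 was also lower than in all 3 lists, with 6.03% (-2.88 points, -4.27 to -1.01) or 4.58% weighted in the same way, while against ESC only and L-EPSC only the interval included 0. Against regions of ESC only, the TCF/LEF motif (ATCAAAG), in 3.64% of all regions, was lower, at 4.51% against 7.14% (difference of -2.63 points, -4.84 to -0.206). With matches in repeated sequence left out the TCF/LEF interval included 0 (-4.31 to 0.194). The TEAD motif (ACATTCC), in 4.66% of all regions, was higher than in ESC only, at 8.69% against 5.55% (3.14 points, 0.610 to 5.95), and higher than in all 3 lists (3.42 points, 1.28 to 6.03), whereas against the mirror class and L-EPSC only its interval included 0. Against all 3 lists alone, ETS matches were lower by a difference of -2.56 points from a share of 4.51%, which was 3.35% weighted to the GC content of the members, and GC box matches by -3.43 points from 4.84%, which was 2.48% weighted. RUNX matches were higher than in all 3 lists by 1.99 points (0.0148 to 4.45), and with matches in repeated sequence left out that interval included 0 (-0.368 to 3.86). For 17 of the 21 motifs the interval against the mirror class included 0. Among them were the octamer of POU factors such as OCT4 (ATGCAAAT, in 2.39% of members and 3.50% of the mirror class), SOX (6.52% and 4.24%), AP-1 (TGANTCA, 9.51% and 9.45%) and CTCF, searched by its longer motif (10.4% and 12.1%). Of 19 motifs with a usable control, the same letters reversed without complementing, 0 controls differed from the mirror class or from ESC only. The reversed GATA motif was higher in members than in L-EPSC only (4.54 points, 1.56 to 7.89) and all 3 lists, and the reversed TFAP2 motif was lower than in all 3 lists, so no GATA or TFAP2 difference is read from those classes.

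**Figure D2:**
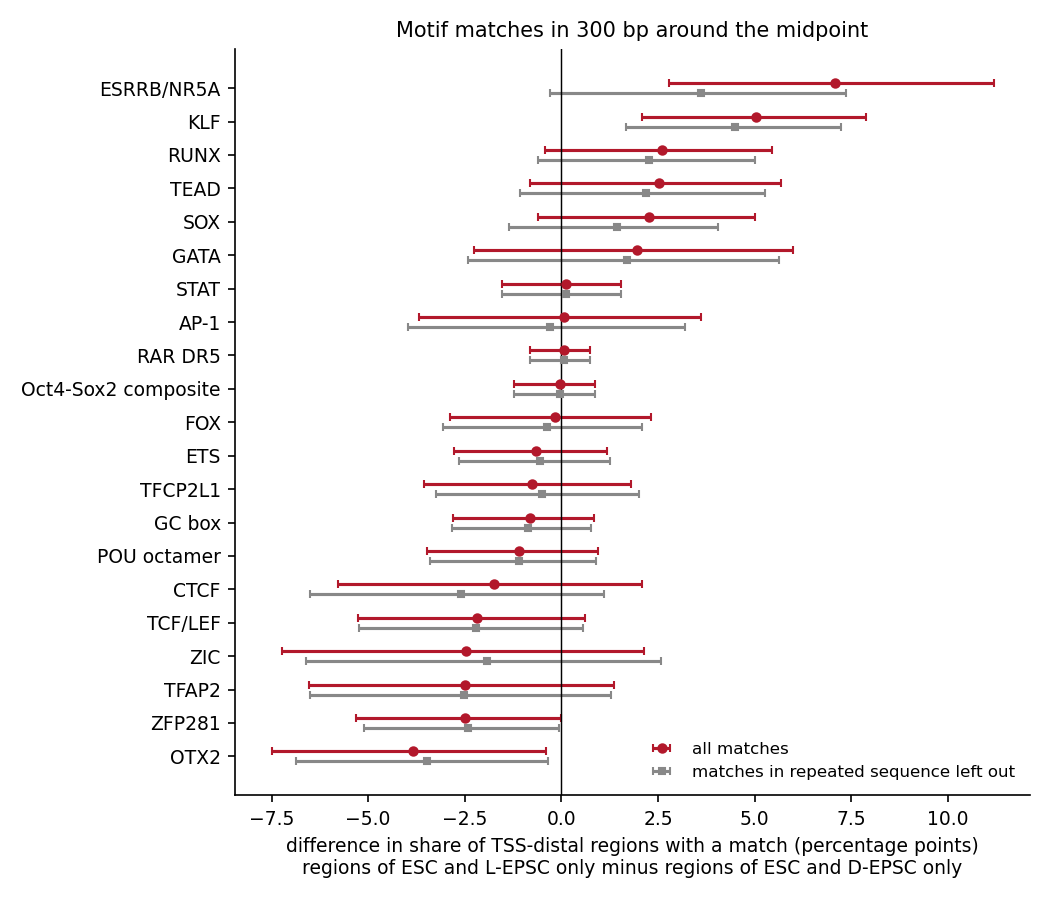
Difference in the share of TSS-distal regions with a motif match, members minus the mirror class (x axis, percentage points), for 21 motifs (y axis), with Newcombe intervals adjusted for 84 comparisons as bars. With all matches (circles) ESRRB/NR5A at 7.07 and KLF at 5.03 points lay above 0, and with matches in repeated sequence left out (squares) the ESRRB/NR5A interval included 0 while that of KLF did not.

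The matches were concentrated at the middle of the members. Within 100 bp of the midpoint the ESRRB/NR5A motif occurred 35.6 times per 1000 members per 50 bp, against 17.0 at 300 to 500 bp from it, a ratio of 2.09. The ratio was 1.12 in the mirror class and 1.32 in regions of all 3 lists. For KLF the ratio was 3.54 in members (16.8 against 4.75), 1.42 in the mirror class and 1.87 in regions of all 3 lists. OTX2 matches were thinner at the middle of the members than in their flanks, with a ratio of 0.517, against 0.900 in the mirror class and 0.716 in regions of all 3 lists. The ESRRB/NR5A share was 21.7% (17.0 to 27.2) in the 249 members with both peaks wider than the list median and 16.8% (14.6 to 19.3) in the 988 with neither, intervals that overlapped. Repeated sequence, as defined below, was in 17.3% (13.1 to 22.5) and 9.01% (7.38 to 11.0) of the same members, and its part in the ESRRB/NR5A shares was not tested. CTCF matches were in 2.81% (1.37 to 5.69) of the members with both peaks wide and in 16.2% (14.0 to 18.6) of those with neither.

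**Figure D3:**
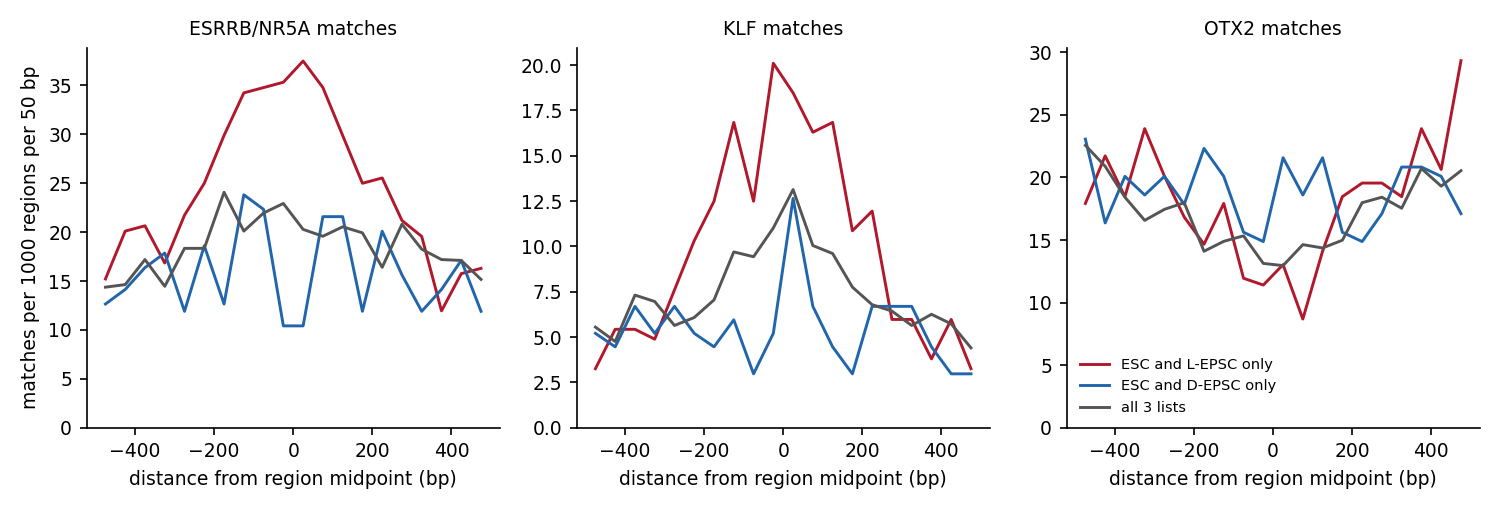
Matches per 1000 TSS-distal regions per 50 bp (y axis) by distance from the region midpoint (x axis, bp) for the ESRRB/NR5A, KLF and OTX2 motifs, in members (red), the mirror class (blue) and regions of all 3 lists (grey). The red lines of ESRRB/NR5A and KLF peaked at the midpoint, at ratios of 2.09 and 3.54 to the flanks, whereas that of OTX2 dipped.

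A part of the ESRRB/NR5A matches lay in repeated DNA. With no repeat annotation at hand, a stretch of 16 bases was counted as repeated where it occurred at least 10 times on chromosome 1, on either strand, a measure chosen after the values were seen. By it, 237 of the 1841 distal members (12.9%, 11.4 to 14.5) had at least 25% of their 300 bp in repeated sequence. This was above the mirror class, with 7.89% (difference of 4.99 points, 2.85 to 7.07), L-EPSC only, with 8.53%, and all 3 lists, with 5.67%. Against ESC only, with 14.1%, the interval included 0 (-3.19 to 0.710). At a minimum of 100 copies the members had 2.93% and the mirror class 3.42% and the interval of the difference included 0 (-1.79 to 0.728). At that minimum the members also lay below ESC only, with 5.98% (-4.16 to -1.89), had an interval that included 0 against L-EPSC only, with 2.53% (-0.348 to 1.33), and stayed above all 3 lists, with 1.31%. In 87 members every ESRRB/NR5A match was repeated. With repeated matches left out, the ESRRB/NR5A motif was in 12.8% of members and 9.15% of the mirror class, a difference of 3.61 points whose interval included 0 (-0.304 to 7.36). Against ESC only and all 3 lists the low-copy difference was 3.20 (0.0880 to 6.54) and 3.23 points (0.597 to 6.27), while against L-EPSC only it was 1.47 points with an interval that included 0 (-1.22 to 4.57). The low-copy KLF difference from the mirror class was 4.49 points (1.66 to 7.24). The TCF/LEF difference from ESC only was then -2.17 points, and its interval included 0 (-4.31 to 0.194). The low-copy CTCF share was above that in ESC only (3.06 points, 0.472 to 5.93), where with all matches the interval had included 0 (-0.309 to 5.60). Beside these and RUNX, no other of the 84 comparisons changed its call. The concentration at the midpoint was also seen in low-copy matches, with ratios of 1.87 for ESRRB/NR5A and 3.48 for KLF in members, against 1.19 and 1.29 in the mirror class. Of the sequences printed first, the Phlda1 match lay in a stretch found 909 times on chromosome 1 and the Tcfap2c match in 1 found 11 times. The Esrrb stretch was found 7 times, and those at Pdgfa, St8sia6, Btbd11 and Ptprg 0 times.

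The repeated sequence with most members was that of the second set printed above. It was found as the run of 20 bases shared by the largest number of members, and a second run of 20 bases nearby marked further copies. The first, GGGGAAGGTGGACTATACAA, occurs 794 times on chromosomes 1 to 19 and X and was in 32 distal members, and the second, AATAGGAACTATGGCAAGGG, occurs 556 times and was in 28. Either was in 43 members on 17 chromosomes, or 2.34% (1.74 to 3.13). Of the 1344 regions of the mirror class 0 held it, which allows a share of up to 0.223%. It was in 28 of 3209 regions of ESC only (0.873%), 17 of 9814 of L-EPSC only (0.173%) and 7 of 11343 of all 3 lists (0.0617%). Of all 99 distal regions with either run, 11 had a D-EPSC peak. As the runs were picked for being common in the members, these shares are a description with no test. Of the other shared runs found in the same way, 1 had a like pattern, in 10 members (5.43 per 1000) against 0.744 per 1000 in the mirror class, 1.87 in ESC only and 0.353 in all 3 lists. Another 2 were common in regions of all 3 lists too. One was in 17 members (9.23 per 1000), against 6.79 per 1000 in all 3 lists and 0.744 in the mirror class, and the other in 10 members (5.43), against 4.58 and 4.46. The 43 members had widths from 173 to 1077 bp with a median of 537 bp, with the ESC peak the wider in 22 and the L-EPSC peak in 20. An ESRRB/NR5A match was present in 31 of them, a SOX match in 12 and a KLF match in 0, and 35 were intergenic. The second run ends in CAAGGG, which fits the start of the ESRRB/NR5A motif. The count of ESRRB/NR5A matches was therefore partly set by the choice of this run and is no separate observation. The nearest D-EPSC peak was 650 bp to 685338 bp away, with a median of 19150 bp. Reads of low mapping quality had been removed in all 3 states alike, so only copies that reads could be placed on were seen, and the part of this filter in the counts was not tested.

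**Figure D4:**
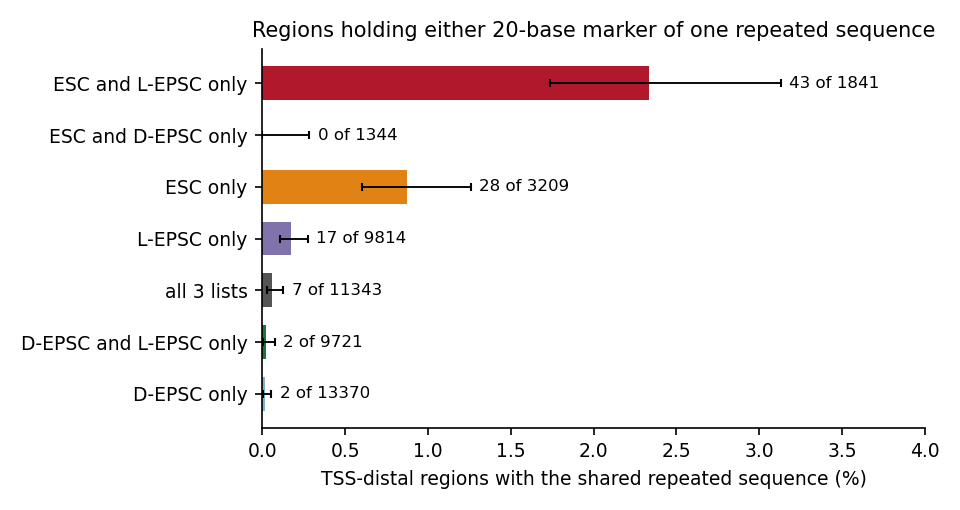
Share of TSS-distal regions whose central 300 bp held either 20-base run of the repeated sequence (x axis, %), by class of region (y axis), with 95% Wilson intervals as bars and counts beside them. The members had the highest share, 43 of 1841, and the mirror class had 0 of 1344.

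Around the genes of the pluripotency network the members were scattered sites beside regions of other classes. Over all 22208 coding genes, 7.56% were the nearest coding gene of at least 1 member (1680 genes, of which 1494 had 1, 147 had 2 and 39 had 3 or more), and 6.23% were nearest to a region of the mirror class. Of 20 pluripotency genes, 6 were nearest to a member (Esrrb, Klf5, Sall4, Sox2, Tbx3 and Zfp42) and 4 to a region of the mirror class. Members made up 9 of the 216 regions nearest to these 20 genes (4.17%, against 2.92% of all regions). At the start of 19 of the 20 genes D-EPSC had a peak, L-EPSC at 18 and ESC at 15. The 9 members lay away from starts, but so did 1841 of all 1915 members, so this was not particular to these genes.

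Esrrb encodes the nuclear receptor whose motif is described above. It had 2 intronic members among 17 nearest regions, with 0 of the mirror class and 7 of all 3 lists. The first (chr12:87736447-87736748) had an ESC peak of 203 bp and an L-EPSC peak of 278 bp, and the D-EPSC gap was 7054 bp. The second (chr12:87845139-87845631) had peaks of 369 and 481 bp, lay 1830 bp from a D-EPSC peak and holds the ESRRB/NR5A match printed above. Zfp42, which encodes the naive marker REX1, had 2 members, of which that at 17362 bp past the start (chr8:44374432-44375570) was the widest at a pluripotency gene, at 1139 bp with an ESC peak of 723 bp and an L-EPSC peak of 1000 bp. Tbx3, a T-box factor of the naive state, had a member at -13419 bp from its start, upstream of it, (chr5:120106836-120107681) with peaks of 659 and 846 bp. Klf5, a KLF factor, had 2 members, at 67849 and 238655 bp past its start, with ESC peaks of 330 and 399 bp and L-EPSC peaks of 434 and 564 bp. The Sall4 member was an intronic site with peaks of 170 and 260 bp (chr2:168586668-168586999). The Sox2 member lay 235151 bp from that gene (chr3:34784008-34784410), with peaks of 186 and 403 bp, and is tied to Sox2 by distance alone. At these 6 genes the L-EPSC peak was the wider in all 9 members, which was seen after the values were known and was not tested.

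**Figure D5:**
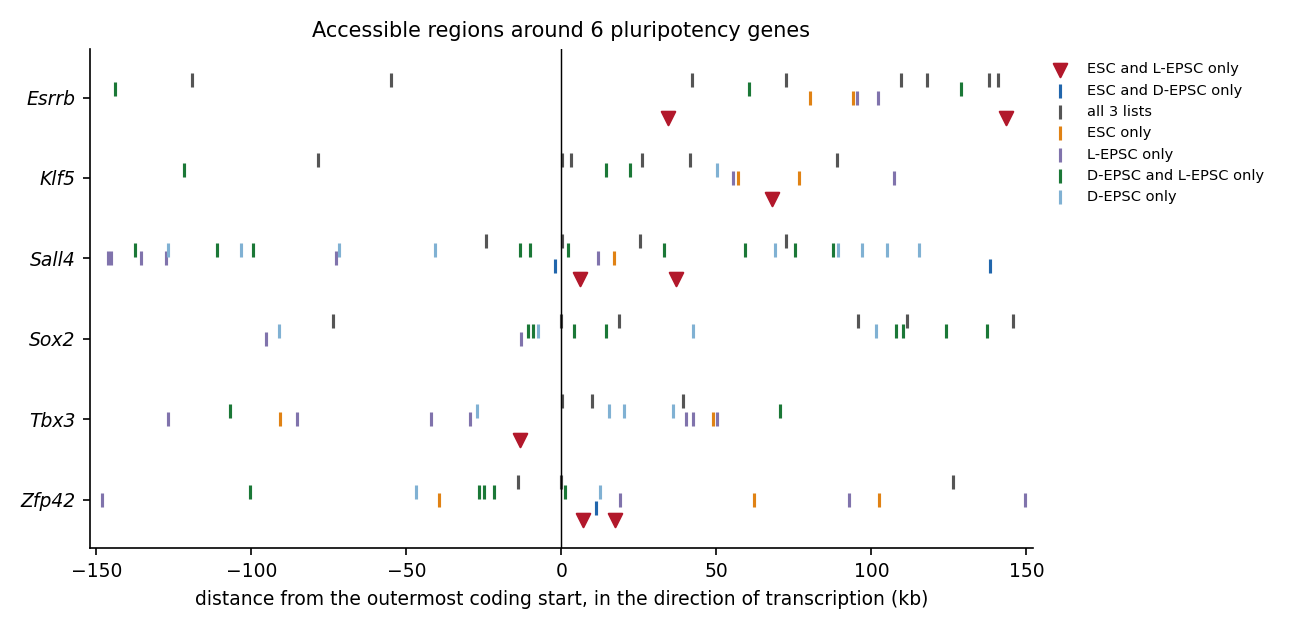
Accessible regions within 150 kb of the outermost coding start of 6 pluripotency genes (y axis), by distance from that start in the direction of transcription (x axis, kb), with members as red triangles and other classes as ticks. Members lay away from the starts. A region of all 3 lists lay at the start of each gene but Esrrb, a member is shown also where another gene is nearer, and 2 members farther than 150 kb are not shown.

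Genes of the other fixed lists had members in small numbers. MEK/ERK feedback and early response genes are the direct readout of the pathway that PD0325901 blocks, and 4 of 20 were nearest to a member, against 5 of 20 for the mirror class. Spred2, an inhibitor of RAS signalling to ERK, had 3 (ESC peaks of 241, 430 and 258 bp, L-EPSC peaks of 470, 219 and 381 bp), Myc had 2 (332 and 359 bp in ESC, 251 and 219 bp in L-EPSC), and Ier2 and Phlda1 had 1 each. The ties to genes are by distance alone. The Myc regions lay 25407 and 136458 bp from its start and the Phlda1 region 86438 bp. The Ier2 region lay in an intron of Cacna1a, 123453 bp from the Ier2 start. The starts of the MEK/ERK genes all had D-EPSC and L-EPSC peaks, 20 of 20 in each list. Of Wnt target genes 3 of 19 had a member (Apcdd1, Notum and Wnt3), and of LIF/Stat3 genes 2 of 16 (the kinase gene Jak1 and Pramel7), with 1 on each list for the mirror class. The region near Pramel7, at 572 bp, was the sole region of any class nearest to that gene, and its nearest D-EPSC peak was 53094 bp away. Of primitive endoderm genes 3 of 15 had members, Col4a2, Foxa2 with 2, and Pdgfra, where the mirror class had 0. The Col4a2 region lay in an intron of Col4a1, at -85398 bp from the Col4a2 start. Of formative and primed genes Foxa2 was the 1 of 19, and it is on both lists, while the mirror class had 2 of 19. Among trophoblast genes 4 of 15 were nearest to a region of the mirror class and 2 of 15 had a member: Tcfap2c, at 653 bp with ESC and L-EPSC peaks of 591 and 590 bp, and Tead4, at 515 bp. Of the two-cell-like genes 12 were annotated and Dppa2 had a member, and of 15 retinoid receptor and handling genes 0 did, where the mirror class had 0 and 2. Of 20 fibroblast markers, looked at with feeder cells in mind, 1, Col6a1, had a member, of 196 bp, and 1 a region of the mirror class. Of the 20 starts, 8 had a peak in ESC, 8 in L-EPSC and 12 in D-EPSC. The shares over all coding genes were 51.7%, 61.0% and 63.6%. The paper states that both EPSC states were cultured without feeder cells before ATAC-seq. The pluripotency list had the highest count of genes, 6 of 20, beside the 7.56% of all coding genes. Counted by regions, its member share, 4.17% of the nearest regions, was not the highest. That share was 8.33% for two-cell-like genes (1 of 12 regions) and 4.55% for primitive endoderm genes. It was below 4.17% for every other list, beside 2.92% of all regions. Regions of ESC only were nearest to 8 of the 20 pluripotency genes, with 14 regions against the 9 members, and no test was made. None of the genes on these lists had a member within 1 kb of a start, against 0.378% of all coding genes (84).

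The 12 widest distal members lay from -839237 to 141509 bp from the nearest coding start, with Ren1 the closest at -3181 bp. The widest, 1622 bp with an ESC peak of 899 bp and an L-EPSC peak of 886 bp, lay in an intron of Prkar1b, at -37215 bp from the start of Pdgfa, a growth factor gene (chr5:139509728-139511349), and 22918 bp from a D-EPSC peak. Near Rnd3 the ESC peak covered all 1557 bp of the region and the L-EPSC peak 309 bp, whereas near Prok2 the ESC peak had 441 bp and the L-EPSC peak 1386 bp. The 12 widest thus differed in which list made them wide. At St8sia6, a sialyltransferase gene, the L-EPSC peak spanned the whole 1352 bp and the ESC peak 649 bp (chr2:13689144-13690495). At Sema4a the peaks had 1019 and 1217 bp. The region nearest to Mms22l, an intergenic site at -839237 bp from its start, had peaks of 1256 and 835 bp. Both lists thus called wide peaks in each of these regions. The others of the 12 were nearest to Cd180, Ly75, Ren1, Pctp, Mtch2 and Zfp706.

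The genes with most members were Wdfy3, Klf12 and 4930555F03Rik with 5 each. Members are tied to the genes of this paragraph by distance alone, and some lay far off. The farthest were at 1662259 bp from the start of 4930555F03Rik, -1686229 bp from that of Cdh9 and -870707 bp from that of Mms22l. Wdfy3, an autophagy adaptor gene, had members of 252 to 868 bp among 27 regions, with 2 of the mirror class. Klf12 had 5 of 26 regions and 1 of the mirror class, and no list had a peak at its start. Cdh9, a cadherin gene, had 4 of 11 regions, and the D-EPSC gaps were 71760 to 601903 bp. Inhbb, which encodes an activin and inhibin subunit, had 4 of 16 regions and 0 of the mirror class, of which 1 of 696 bp lay 164 bp past its start (chr1:121318313-121319008), with a D-EPSC peak 243 bp away. Dctd and Mms22l had 4 each, and Kcnj3, Ly75 and Ptprg, a receptor phosphatase gene, 3 each. These last were taken by summed region width among genes tied at 3 members, as 39 genes had 3 or more. All 3 lists had a peak at the start of Inhbb, Dctd, Mms22l, Kcnj3, Ly75, Ptprg and Wdfy3. In general, 75.1% (72.9 to 77.1) of the 1680 nearest genes had a D-EPSC peak within 1 kb of a start, close to the 75.8% with an L-EPSC peak, against 63.6% and 61.0% of all coding genes. Genes nearest to other classes were also above all coding genes. The D-EPSC and L-EPSC shares were 78.8% and 68.9% for the mirror class and 75.7% and 72.2% for ESC only. Of the 1680 genes, 227 were also nearest to a region of the mirror class, which had 1384.

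The 74 TSS-proximal members were each given to the nearest coding gene, 74 genes in all. The 84 genes above are instead all those with any part of a member within 1 kb of a start. Of the 74 genes, 49 had no D-EPSC peak at any coding start and 25 had one at some start. The median GC content of these promoters was 54.5% and the CpG observed/expected ratio 0.414, against 63.1% and 0.762 for proximal regions of all 3 lists and 60.1% and 0.517 for the 163 of the mirror class, so they were poorer in CpG. The widest was at Ptf1a, a factor of pancreas and neuron development, at -105 bp from the start, with an ESC peak of 268 bp and an L-EPSC peak of 1323 bp (chr2:19366524-19367846). Others were at Lmo3, where the ESC peak had 897 bp and the L-EPSC peak 382 bp and the nearest D-EPSC peak was 281760 bp away, at Btbd11, with 597 and 1022 bp and the KLF match printed above, at Pglyrp1, an antimicrobial peptidoglycan receptor gene, with 608 and 987 bp, and at Esam, an endothelial adhesion gene, with 437 and 934 bp. At Nipsnap3a the ESC peak was the wider, with 845 against 334 bp. The other 6 of the 12 widest were at Ephx3, Sh2d4b, Poli, Accsl, Gm6728 and Slc37a1, the last with a D-EPSC peak 164 bp away.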

How the data were processed

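ATAC-seq libraries of ESCs, D-EPSCs and L-EPSCs (6 samples, 2 technical replicates per state) had been aligned by the authors to mm9 with Bowtie2 2.3.5, filtered with SAMtools 1.10 for properly paired reads of good mapping quality, and called with MACS. The labels also name FastQC 0.10.1, Trim Galore 0.6.3, cutadapt and HOMER. The authors deposited 1 peak list per state, with positions alone and no counts, signal or p-values, and how the replicates were joined is not given in the sources used here. A replicate is technical, and no depth or height could be used.

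Python 3.11.15 (pandas 2.3.3, scipy 1.17.1, pysam 0.24.0) merged the peaks. Lists pooled 1 state each, and 2 peaks per list on the mitochondrial chromosome were left out. Sequence came from NCBIM37 (mm9) and genes from GENCODE M1. Shares had 95% Wilson intervals, their differences Newcombe intervals (for motifs at a level of 99.940%, Bonferroni over 84), and medians order-statistic intervals. Floors for a count of 0 used 3 regions. Merging, gaps, motif search and copy counts were tested on simulated data, and merging against bedtools 2.31.1.

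Named were the 12 widest distal and proximal members, the 3 nearest to the rule on each side, the 10 genes with most members, and every gene of 10 lists (174 genes, 171 annotated) nearest to a member. Ties in the number of members were broken by summed region width. Shown sequences came from these members and genes. The repeated sequence was chosen after the values were seen. The members, lists and motifs were chosen with earlier results of these data known. Alternatives were other merging, overlap, width, distance and window rules.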

Additional observations from a re-analysis of the deposited data

How the results depend on the processing

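The counts depended on peak width. The number of regions, 1915, was 1754 with merging at 100 bp of overlap and 1869 with no D-EPSC peak within 500 bp, and moved to 3041 with the widest peaks of each list, as many as the smallest list held, to 1048 with the widest 50%, to 1102 with reciprocal overlap of 50% and to 263 with both peaks wider than the list median, a setting added after seeing the data. The ratio to the mirror class, 1.27, moved to 1.55 with the widest peaks in equal number and to 1.52 with both peaks wide. The TSS-proximal share, 3.86%, moved to 8.58% and 13.9% with the widest peaks in equal number and the widest 50%, to 7.99% at a TSS distance of 2.5 kb and to 5.32% with both peaks wide. Its difference from the mirror class stayed below 0 with its interval under each of these, between -6.51 and -20.1 points. The median GC content, 49.3%, moved to 50.2%, 49.9% and 49.6% with the widest peaks in equal number, the widest 50% and reciprocal overlap, to 48.8% in 400 bp around the midpoint and to 48.4% with both peaks wide.

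Of the 4 motifs that differed from the mirror class, 3 still did with windows of 200 bp and 500 bp, all 4 with distal set at over 2.5 kb, 3 with repeated matches left out, and 0 with both peaks wide, where 249 members remained and the differences were 10.1 points for ESRRB/NR5A and 4.93 for KLF. Weighted to the GC content of the members, a setting also added later, the ESRRB/NR5A and KLF differences were 7.18 and 5.31 points, that of OTX2 moved from -3.83 to -5.77 and that of ZFP281 from -2.50 to -1.62.

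No paired analysis was possible because the lists pool the replicates, which also prevented leaving a replicate out. The lists hold no heights or depths, so a missing D-EPSC peak cannot be told apart from a weaker signal, and in most of the regions at least 1 of the peaks was no wider than the median of its list. The cause of the moves above was not tested.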
